A study of Mus musculus with 194 samples.

Results

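The 65 genes described here are the axon guidance ligands and receptors of the mouse: the semaphorins with their plexin and neuropilin receptors, the ephrins with their Eph receptors, the netrin Ntn1 with Dcc and the Unc5 receptors, and the Slits with the Robo receptors. They were taken by symbol from the 21631 protein-coding genes of chromosomes 1 to 19 and X in the RefSeq annotation of GRCm38, with no measured value used. They comprised 20 semaphorins, 11 plexins and neuropilins, 8 ephrins, 14 Eph receptors, 6 genes of the netrin system, and 6 Slits and Robos. For each gene the level was the number of transposon insertions in the gene body with 10 kb on each side (the locus), per 1000000 insertions of the animal, written IPM below.

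Guidance cues steer the growing tip of an axon by attraction or repulsion. Semaphorins act on plexins, often with a neuropilin as co-receptor, and ephrins act on Eph receptors between touching cells. Netrin attracts axons through Dcc and repels them through Unc5 receptors, and Slits repel axons through Robos. Many of these receptors stay in use in the postnatal cortex, where they act on dendrites, spines and synapses.

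The study recorded where a transposase had placed a reporter transposon in brain cells, a method called calling cards. The transposon goes into TTAA sites, and an insertion marks DNA that was open to the transposase or, with a fused DNA-binding protein, DNA near that protein. Virus was injected at P0 to P1, and the insertions were read from RNA of cortex unless stated otherwise. Of 47 tables, 46 came from 1 animal each and 1 from N2a, a mouse neuroblastoma line, with 3 experiments combined.

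C57bl6J animals (n = 2) had received viruses that do not need Cre. Syn1Cre animals (n = 6) carry Cre from the synapsin 1 promoter, which is active in neurons, and GFAPCre animals (n = 6) carry Cre from the promoter of the astrocyte gene Gfap. Syn1CreNeg (n = 6) and GFAPCreNeg (n = 6) are the Cre-negative groups of both lines. Syn1Cre_SP1_P28 (n = 4) and Syn1Cre_SP1_P10 (n = 3) are Syn1Cre animals named for SP1, a transcription factor that binds GC boxes, and for the ages P28 and P10. What the SP1 construct holds, which transposase was used and how old the other groups were at collection are not in the labels. Rbp4Cre_TRAP (n = 4) was prepared from whole forebrain of Rbp4Cre animals, whose driver is used for layer 5 projection neurons, with a pair of libraries per animal. BrokenHeart (n = 3) was read from DNA by inverse PCR, and Frontflip_GFAPCre (n = 3) and Frontflip_GFAPCreNeg (n = 3) are a further pair of groups with and without Cre. A cortex holds many cell types, so fewer cells of a type and fewer insertions per cell cannot be told apart.

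The insertions per animal ranged from 443158 to 1364948 in Syn1Cre, from 97519 to 556145 in Syn1CreNeg, from 600443 to 1505413 in GFAPCre and from 208057 to 597230 in GFAPCreNeg. They were fewer with SP1, 108965 to 577609 at P28 and 86842 to 95331 at P10, and fewest of the tested groups in Rbp4Cre_TRAP, with 24408 to 57014. No sequencing pool held both Syn1Cre and Syn1CreNeg, GFAPCre, SP1 or Rbp4Cre_TRAP animals, and in those comparisons pool cannot be told apart from group. Summed levels at neuron marker loci were 3968 to 4519 IPM in Syn1Cre and 2602 to 3561 in Syn1CreNeg, and at astrocyte marker loci 640 to 2069 and 2176 to 2847. The 2069 belonged to Syn1Cre animal 5, which stood apart from the other Syn1Cre animals, and results that rest on it are also given without it.

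The largest differences among the guidance genes were between SP1 and Syn1Cre animals, and promoters of 6 of the genes with increases or decreases there are shown. Each sequence is the 250 bases before the transcription start, 5′ to 3′ on the gene's strand, from RefSeq on GRCm38.p6. Capitals mark the GC box GGGCGG on either strand (read as CCGCCC on the other) and the insertion site TTAA. Efna2, Plxna3 and Efna3 were the members with the largest increases with SP1 at P28. Ephb6, Epha10 and Sema3c were chosen after their values were seen: most P28 insertions at Ephb6 lay near its own start, the most used site of Epha10 lies inside the printed window, and Sema3c had the largest decrease.
Efna2 (chr10:80179232-80179481, + strand, 2 GC boxes): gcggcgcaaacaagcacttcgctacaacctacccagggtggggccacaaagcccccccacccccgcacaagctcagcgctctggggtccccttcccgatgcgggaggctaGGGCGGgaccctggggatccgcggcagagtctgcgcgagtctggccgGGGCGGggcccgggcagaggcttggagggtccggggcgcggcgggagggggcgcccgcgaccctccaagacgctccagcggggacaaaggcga
Plxna3 (chrX:74328816-74329065, + strand, 1 GC box and 1 TTAA): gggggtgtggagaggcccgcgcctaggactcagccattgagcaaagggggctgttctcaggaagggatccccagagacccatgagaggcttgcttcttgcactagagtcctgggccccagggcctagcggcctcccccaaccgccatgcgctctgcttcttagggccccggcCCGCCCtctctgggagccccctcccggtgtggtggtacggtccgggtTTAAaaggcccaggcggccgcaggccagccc
Efna3 (chr3:89322940-89323189, − strand, 3 GC boxes): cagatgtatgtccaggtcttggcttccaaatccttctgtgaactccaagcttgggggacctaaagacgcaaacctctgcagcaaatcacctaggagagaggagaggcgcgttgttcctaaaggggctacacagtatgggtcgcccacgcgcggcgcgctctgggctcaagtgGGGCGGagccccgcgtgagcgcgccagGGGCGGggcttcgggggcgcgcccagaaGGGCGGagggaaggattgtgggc
Ephb6 (chr6:41605261-41605510, + strand, 5 GC boxes): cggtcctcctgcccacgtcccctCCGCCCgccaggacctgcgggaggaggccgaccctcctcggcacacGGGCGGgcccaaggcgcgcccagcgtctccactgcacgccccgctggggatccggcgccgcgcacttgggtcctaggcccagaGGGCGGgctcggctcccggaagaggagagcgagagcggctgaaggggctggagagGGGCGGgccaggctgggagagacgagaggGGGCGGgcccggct
Epha10 (chr4:124881535-124881784, + strand, 2 GC boxes and 1 TTAA): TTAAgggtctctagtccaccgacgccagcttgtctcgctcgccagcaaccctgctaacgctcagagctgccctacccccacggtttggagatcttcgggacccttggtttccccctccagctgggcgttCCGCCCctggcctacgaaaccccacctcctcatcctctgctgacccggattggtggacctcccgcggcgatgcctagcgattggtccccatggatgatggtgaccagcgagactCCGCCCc
Sema3c (chr5:17574566-17574815, + strand, 3 GC boxes): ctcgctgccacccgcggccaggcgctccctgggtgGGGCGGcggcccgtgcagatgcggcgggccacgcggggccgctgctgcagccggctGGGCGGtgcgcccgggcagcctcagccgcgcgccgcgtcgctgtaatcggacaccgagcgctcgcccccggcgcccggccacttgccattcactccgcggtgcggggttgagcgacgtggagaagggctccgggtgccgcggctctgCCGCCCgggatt

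The motif was in the 250 bases before the start of 7464 of 17274 protein-coding genes (43.2%) and of 41 of the 55 guidance genes with an entry in the table (74.5%). It was in 11 of 11 of those that rose with SP1 at P28, in 15 of 23 that fell (65.2%), in 8 of 10 that were tested without a call and in 7 of 11 that were too thinly covered to test. Sema3c, which fell, has as many boxes as Efna3, which rose. TTAA was missing from 9287 of the 17274 windows (53.8%) and from 36 of the 55 windows of guidance genes (65.5%), Efna2, Efna3, Ephb6 and Sema3c among those printed. A matching stretch of letters is not evidence that the factor binds there.

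The guidance genes together held 1.58% ± 0.0612 of all insertions in C57bl6J (SD, n = 2), 1.47% ± 0.101 in Syn1Cre (n = 6), 1.36% ± 0.0761 in Syn1CreNeg (n = 6), 1.57% ± 0.119 in GFAPCre (n = 6) and 1.54% ± 0.118 in GFAPCreNeg (n = 6). The share was 1.02% ± 0.0696 with SP1 at P28 (n = 4) and 0.969% ± 0.0498 at P10 (n = 3), below every animal of those 5 groups. Slits and Robos gave the largest part of the difference, with 0.519% ± 0.0448 in Syn1Cre, 0.263% ± 0.0442 at P28 and 0.246% ± 0.0171 at P10. Eph receptors held 0.392% ± 0.0335, 0.233% ± 0.00827 and 0.234% ± 0.0270 in the same groups. The ephrins went the other way, from 0.0613% ± 0.00524 in Syn1Cre to 0.0680% ± 0.00217 and 0.0811% ± 0.00548. A low share was not limited to SP1. The DNA-read BrokenHeart animals held 0.888% ± 0.0542 (n = 3), with 0.218% ± 0.0410 in Slits and Robos and 0.204% ± 0.0447 in Eph receptors. All members held 1.33% ± 0.0777 in Rbp4Cre_TRAP (n = 4), 1.36% ± 0.104 in Frontflip_GFAPCre (n = 3) and 1.03% ± 0.152 in Frontflip_GFAPCreNeg (n = 3).

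The genes are long for protein-coding genes, with a median body of 60.9 kb against 17.3 kb for all, and they run from Efna4 at 4.64 kb to Robo2 at 1555 kb. Robo2, a Slit receptor, had the most insertions of any member, 3179 and 3217 IPM in the 2 C57bl6J animals. Per kb of locus the order in C57bl6J began with the ephrin receptors Epha7 at 3.81 ± 0.229 IPM per kb (SD, n = 2), Epha5 at 2.61 ± 0.319 and Epha3 at 2.52 ± 0.164. Epha7 stood above both, and the values of Epha5 and Epha3 lay within 1 SD of each other. The order ended with Sema6b at 0.110 ± 0.0165, the Eph receptor Ephb3 at 0.109 ± 0.0126 and the plexin Plxnb3 at 0.0408 ± 0.0322.

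Epha7 also led in Syn1Cre, GFAPCre, GFAPCreNeg and Rbp4Cre_TRAP, and Sema6d, a transmembrane semaphorin, led in Syn1CreNeg at 2.67 ± 0.446 IPM per kb (n = 6). Epha7 followed in Syn1CreNeg at 2.32 ± 0.502. In GFAPCreNeg (n = 6) Epha7 had 2.93 ± 0.533, beside 2.82 ± 0.503 for Sema6d. In both Cre-negative groups these genes lay within 1 SD of each other. With SP1 the order was another one: Efna2, Ephb6 and Unc5a came first at both ages, at 6.15 ± 0.888, 3.10 ± 0.878 and 2.74 ± 0.648 IPM per kb at P28 (n = 4) and at 8.78 ± 0.794, 5.12 ± 0.603 and 3.63 ± 0.318 at P10 (n = 3). These orders are descriptions and were not tested.

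**Figure D1:**
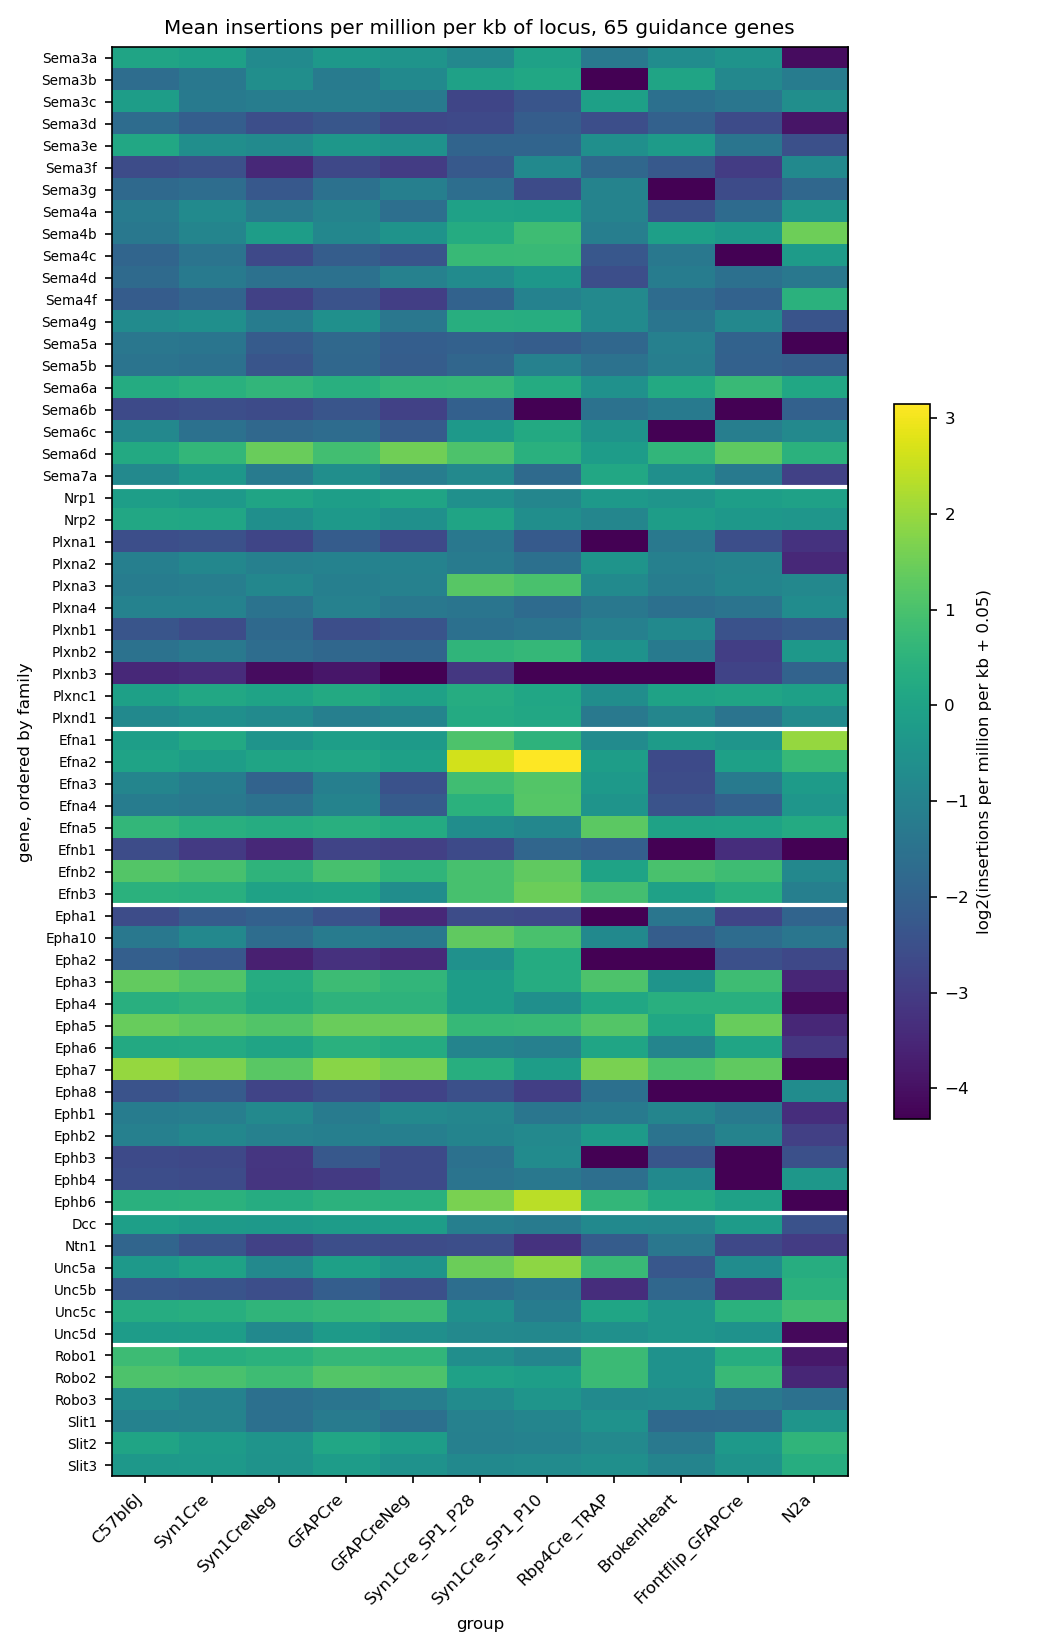
Mean level of each of the 65 guidance genes (vertical axis, grouped by family between white lines) in 10 groups of animals and the N2a line (horizontal axis), as log2 of IPM per kb of locus with 0.05 added. Epha7, Epha5 and Epha3 are bright in most cortex groups, and Efna2, Ephb6 and Unc5a are the brightest in the SP1 columns. Frontflip_GFAPCreNeg, with 2341 to 9601 insertions per animal, is not drawn.

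In the SP1 comparisons, the guidance genes that rose against Syn1Cre were mostly short and those that fell mostly long. At P28, 11 of 52 tested members rose and 28 fell (edgeR quasi-likelihood test, adjusted p under 0.05 over all loci), where 26.2% and 25.3% of all 12053 loci did. At P10, 12 of 54 rose and 27 fell, against 20.1% and 20.6% of 12787 loci. The share of members that rose was thus near that of all loci at both ages, and the share that fell was above it at both. The median log2 fold change over the tested members was −0.52 at P28 and −0.55 at P10, beside −0.06 and −0.26 over all loci. Both comparisons share the Syn1Cre animals.

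These directions are relative to TMM scaling, which takes most loci as unchanged. Under scaling by total insertions the median of all loci moved to 0.42 at P28 and 0.27 at P10, and the share of all called loci that were higher moved from 50.9% to 80.4% at P28 and from 49.3% to 76.1% at P10. Of the members, 20 were then higher and 17 lower at P28, and 15 and 17 at P10. All 11 and 12 increases passed under both scalings, as did 17 of the 28 and 17 of the 27 decreases, and no member was called in opposite directions. The decreases at P28 that did not pass under total insertions were those of Efnb2, Ephb2, Nrp1, Nrp2, Ntn1, Plxna2, Plxna4, Sema3d, Sema5b, Sema7a and Slit1. At P10 they were those of Ephb1, Nrp1, Nrp2, Ntn1, Plxnc1, Sema3a, Sema6a, Sema6d, Sema7a and Slit3.

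Among ephrins, the membrane-bound ligands of Eph receptors, 2 of 6 tested rose and 2 fell at P28, and 3 of 7 rose and 1 fell at P10. Beside this and each family count below stand 26.2% and 25.3% of all loci at P28, and 20.1% and 20.6% at P10. Efna2 had 185, 202, 213 and 151 IPM in the P28 animals and 242, 290 and 273 in the P10 animals, while the 6 Syn1Cre animals lay between 20.2 and 28.9. No SP1 animal came near a Syn1Cre animal, and Efna2 also stayed between 16.7 and 37.3 in both Cre-negative groups and GFAPCre. It rose by a log2 of 2.30 (SE 0.17, edgeR adjusted p = 1.05e-10) at P28 and 2.82 (SE 0.23, edgeR adjusted p = 2.51e-10) at P10.

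Efna3 had 51.7, 55.1, 24.3 and 74.4 IPM at P28 and 57.6, 55.7 and 73.4 at P10, above the 7.03 to 15.7 of Syn1Cre. Its locus overlaps that of its neighbour Efna4, so insertions between them count for both, and Efna4 rose at P10 (log2 2.20, SE 0.54, edgeR adjusted p = 0.00184) and was not tested at P28. Efna5, the longest ephrin gene, fell to 220, 101, 219 and 154 IPM at P28 and 150, 156 and 136 at P10 from 287 to 449 in Syn1Cre. The groups do not overlap, and the log2 fold changes were −1.58 (SE 0.19, edgeR adjusted p = 1.75e-07) and −1.89 (SE 0.22, edgeR adjusted p = 1.51e-07).

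Of 10 tested Eph receptors, 3 rose and 6 fell at each age. Epha10, a receptor without kinase activity, had 112, 193, 134 and 111 IPM at P28 and 104, 111 and 115 at P10, against 20.3 to 38.5 in Syn1Cre. All 7 SP1 animals exceeded all 6 Syn1Cre animals, with log2 fold changes of 1.67 (SE 0.20, edgeR adjusted p = 1.9e-07) and 1.41 (SE 0.31, edgeR adjusted p = 0.000733). Epha2, at 38.8, 36.7, 24.3 and 22.5 IPM at P28 against 4.51 to 10.1, rose by a log2 of 1.40 at P28 and 2.31 at P10. Ephb6, the other receptor without kinase activity, was named after its values were seen: it had 116, 138, 134 and 67.5 IPM at P28 and 184, 212 and 168 at P10, above the 36.7 to 56.4 of Syn1Cre.

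The receptors Epha3 to Epha7 fell at both ages. Ephb2 at P28 and Ephb1 at P10 fell under TMM and did not pass under total insertions. Epha7 had 147, 174, 255 and 272 IPM at P28 and 161, 178 and 105 at P10, while Syn1Cre ranged from 474 to 636. The groups are far apart, with log2 fold changes of −1.81 (SE 0.18, edgeR adjusted p = 1.31e-08) and −2.43 (SE 0.22, edgeR adjusted p = 2.65e-09). Epha3 (log2 −1.79 and −1.39), Epha6 (−1.71 and −1.95), Epha4 (−1.13 and −1.72) and Epha5 (−1.08 and −1.12) fell at P28 and P10, and of these only Epha4 at P28 overlapped between the groups.

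Of 16 semaphorins tested at P28 and 17 at P10, 3 rose and 7 fell at each age. The risers at both ages were transmembrane semaphorins, Sema4c, Sema4b and Sema6c. Sema4c had 43.1, 64.2, 66.8 and 29.4 IPM at P28 against 4.51 to 14.6 in Syn1Cre, a log2 fold change of 1.54 (SE 0.30, edgeR adjusted p = 0.000154), and of 1.76 (SE 0.45, edgeR adjusted p = 0.00298) at P10, where the call was lost when each position was counted once per animal (1.36, edgeR adjusted p = 0.0549). Secreted class 3 semaphorins, which bind neuropilins, were among those that fell. So was the transmembrane Sema5a, at both ages and under both scalings (log2 −0.63 and −0.85 under total insertions). Sema3c had 4.31, 27.5, 6.07 and 31.2 IPM at P28, below the 58.2 to 69.2 of Syn1Cre, and its log2 fold change of −2.11 (SE 0.29, edgeR adjusted p = 1.56e-06) was the lowest of all members there. At P10 it was −1.86.

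Sema3e fell at both ages (log2 −1.68 and −1.97), and Sema7a, a lipid-anchored semaphorin, fell by a log2 of −0.94 at P28 and −1.99 at P10. Without P10 animal 2 the P10 value for Sema7a was −1.46 (edgeR adjusted p = 0.0996). Sema3a fell at P28, to 267, 266, 188 and 296 IPM from 411 to 516 (log2 −1.27, SE 0.16, edgeR adjusted p = 3.82e-07). At P10 it had 449, 412 and 514 IPM, the range of Syn1Cre, and its call there (log2 −0.50, edgeR adjusted p = 0.0193) turned to 0.03 under total insertions and was lost without P10 animal 2 (−0.46, edgeR adjusted p = 0.0763).

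The receptors of semaphorins also went in both directions. Of 8 plexins and neuropilins tested, 2 rose and 4 fell at P28, and 2 and 5 at P10. Plxna3 had 90.6, 64.2, 109 and 65.8 IPM at P28 against 8.06 to 26.6 in Syn1Cre, with log2 fold changes of 2.00 (SE 0.27, edgeR adjusted p = 9.53e-07) and, at P10, 1.77 (SE 0.46, edgeR adjusted p = 0.00313). The P10 call was lost without P10 animal 1 (log2 1.37, edgeR adjusted p = 0.0803). Plxnb2 rose with it (1.39 and 1.54). The co-receptor Nrp1 and the class 3 partners Plxna4 and Plxna2 fell by −0.65, −0.85 and −0.69 at P28 and by −1.15, −1.34 and −1.32 at P10 on the log2 scale. At P28 both groups overlapped for all of them.

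In the netrin system, 1 of 6 rose and 4 fell at each age. Unc5a, a netrin receptor named after its values were seen, had 168, 266, 267 and 185 IPM at P28 and 265, 301 and 315 at P10, above the 47.4 to 90.3 of Syn1Cre. Its relatives Unc5c (log2 −1.47 and −2.22) and Unc5d (−1.13 and −1.24) and the attractive receptor Dcc (−1.36 and −1.62) fell. Dcc had 543, 303, 450 and 583 IPM at P28, all below the 751 to 1049 of Syn1Cre. The ligand Ntn1 was called lower at both ages (−0.84 and −1.89) on few insertions, 4.31 to 45.9 IPM at P28. The Ntn1 call was lost without P28 animal 1 (−0.53, edgeR adjusted p = 0.152) or 4 (−0.99, edgeR adjusted p = 0.0654) and without P10 animal 2 (−1.35, edgeR adjusted p = 0.133) or 3 (−1.89, edgeR adjusted p = 0.065).

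No Slit or Robo rose. Of 6 tested, 5 fell at P28 and 4 at P10. Robo1, Robo2, Slit2 and Slit3 have bodies over 150 kb, and 72.8% of all loci of that length fell at P28 and 64.6% at P10. Robo2 had 1552, 1147, 1324 and 1726 IPM at P28 and 1393, 1192 and 1490 at P10, against 2711 to 3471 in Syn1Cre. The log2 fold changes were −1.57 (SE 0.16, edgeR adjusted p = 1.48e-08) and −1.71 (SE 0.16, edgeR adjusted p = 2.16e-09). Robo1 fell by −1.51 and −1.91 and the ligand Slit2 by −1.37 and −1.41. Sema6a and Efnb3, the remaining genes followed in every comparison, had log2 fold changes of −0.26 and 0.16 at P28, neither of which passed, and of −0.68 and 0.57 at P10, where Sema6a passed (edgeR adjusted p = 0.022) and was lost without P10 animal 1 (−0.59, edgeR adjusted p = 0.101).

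**Figure D2:**
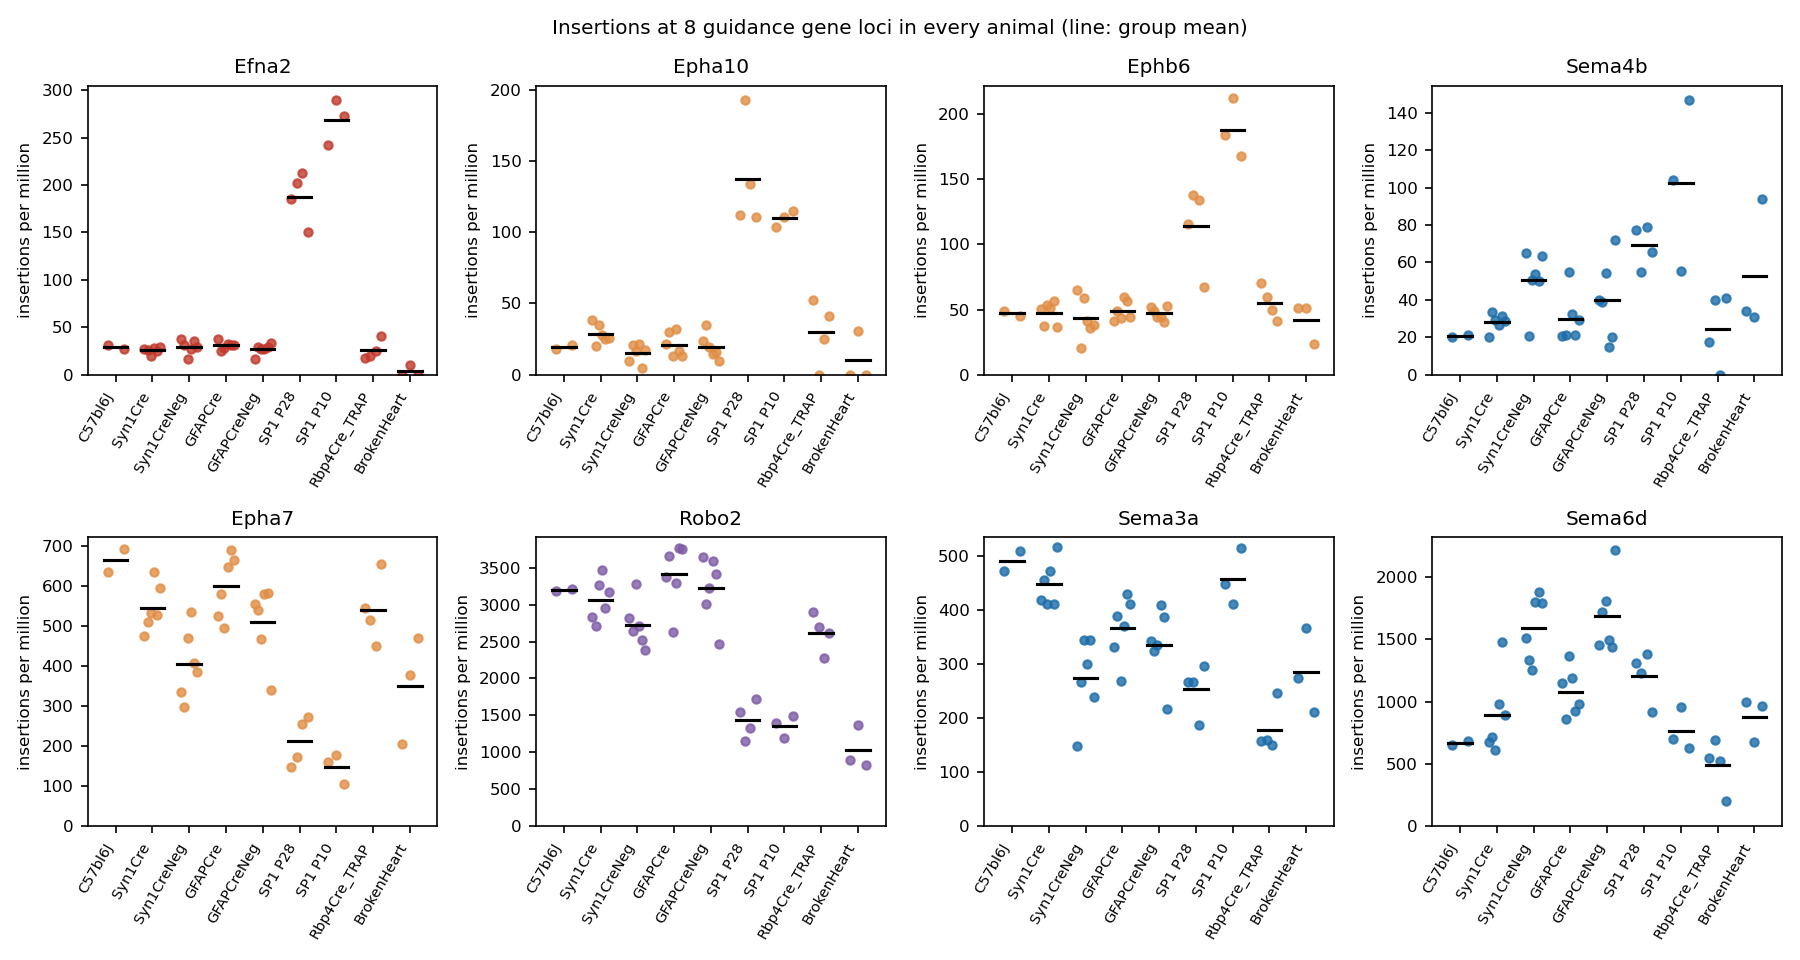
IPM at 8 guidance gene loci (vertical axes, each from 0) in every animal of 9 groups (horizontal axes), with the group mean as a line. SP1 P28 and SP1 P10 stand for the Syn1Cre_SP1 groups. Every SP1 animal lies above every Syn1Cre animal at Efna2, Epha10, Ephb6 and Sema4b and below at Epha7 and Robo2. At Sema3a every animal of SP1 P28, Syn1CreNeg, GFAPCreNeg, Rbp4Cre_TRAP and BrokenHeart lies below every Syn1Cre animal. Sema6d is high in both Cre-negative groups.

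All 11 increases at P28 and all 12 at P10 had no overlap between SP1 and Syn1Cre animals, and 13 of 28 and 18 of 27 decreases had none. Over all tested loci, 24.4% rose and 7.64% fell without overlap at P28, and 19.7% and 12.5% at P10. That was 93.0% of the loci that rose and 30.2% of those that fell at P28, and 98.2% and 60.5% at P10. The lack of overlap among risers was thus general. At P28 the risers had a median body of 16.7 kb (9.04 kb at Efna3 to 60.9 kb at Unc5a) and the fallers of 255 kb (23.3 kb at Sema7a to 1555 kb at Robo2). Among members under 50 kb, 10 of 19 rose and 2 fell, where 35.7% and 13.1% of all loci of that length did. Among members over 150 kb, 0 of 24 rose and 21 fell, where 2.33% and 72.8% of all did. At P10 the counts were 11 and 1 of 21 members under 50 kb (all loci 26.6% and 11.1%) and 0 and 22 of 24 over 150 kb (2.74% and 64.6%). Length and direction went together in all genes, not in the guidance genes alone.

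Summed astrocyte marker loci were 1056 to 2272 IPM at P28 and 913 to 1170 at P10, and neuron marker loci 3111 to 3232 and 2936 to 3531, beside 640 to 2069 and 3968 to 4519 in Syn1Cre. Of 12 tested neuron loci 2 rose and 4 fell at P28 and 3 and 4 at P10, and of 10 astrocyte loci 1 rose at P28 and 2 fell at P10. Microglial marker loci summed to 155 to 202 IPM at P28 and 184 to 294 at P10, above the 93.8 to 101 of Syn1Cre, and Aif1 rose at both ages (log2 0.76 and 1.52), although Cx3cr1, Tmem119 and Csf1r were at 0 at P10. Oligodendrocyte lineage loci summed to 239 to 306 and 231 to 299 IPM against 246 to 291, with 2 and 1 of 6 tested lower and Pdgfra at 0 at both ages. Endothelial loci summed to 36.7 to 67.5 and 22.3 to 92.1 IPM against 47.4 to 110, with 1 of 2 tested lower at each age and Cldn5 and Slco1a4 at 0 at P10. The part of these markers in the guidance gene results was not tested.

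**Figure D3:**
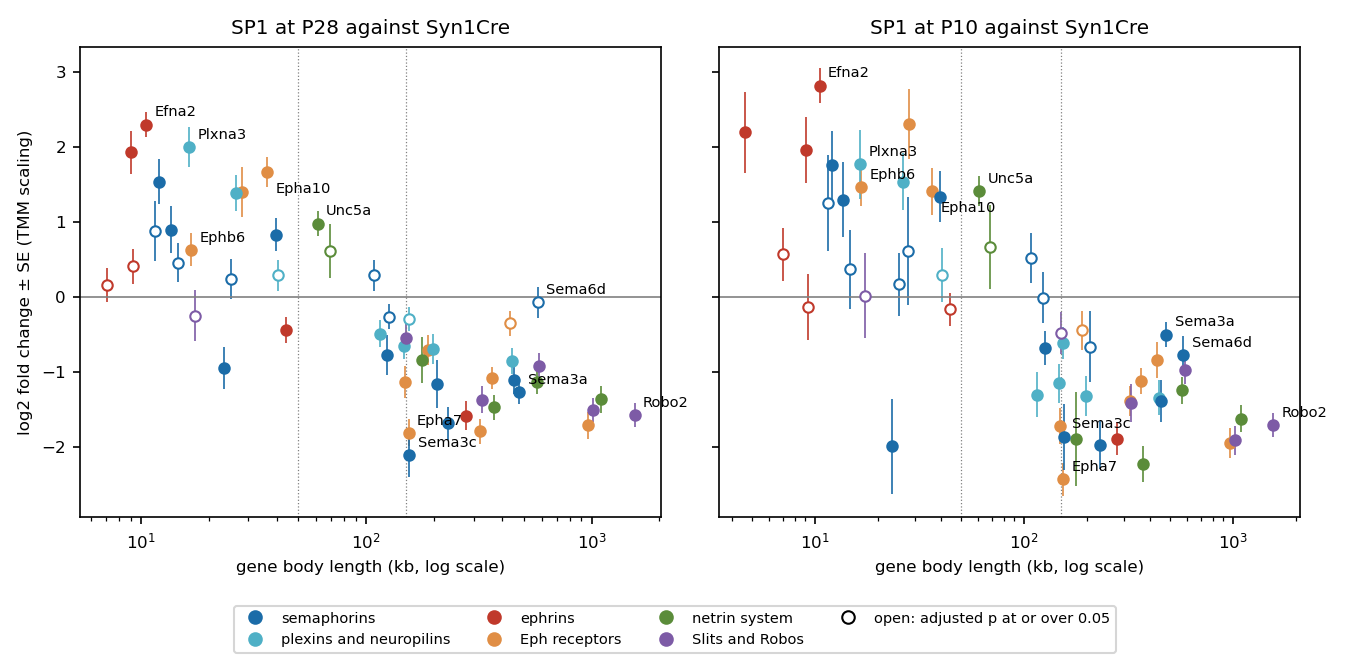
Log2 fold change of SP1 against Syn1Cre animals (vertical axis, ± SE, TMM scaling) against gene body length (horizontal axis, log scale) for each tested guidance gene at P28 (left) and P10 (right). Colours give the family, filled points passed the threshold, and dotted lines stand at 50 and 150 kb. Risers lie at the left, up to Unc5a at 60.9 kb, and no member over 150 kb is filled above 0.

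Near transcription starts the SP1 animals held more insertions. Within 1 kb of the 71 annotated starts of 55 members lay 197 ± 20.6 IPM in Syn1Cre (SD, n = 6; 170 to 228), 599 ± 94.3 at P28 (n = 4; 492 to 697) and 781 ± 54.2 at P10 (n = 3; 735 to 841). No SP1 animal overlapped a Syn1Cre animal. Near the 21045 starts of all protein-coding genes the values were 52362 ± 4849, 166185 ± 25080 and 192614 ± 10299. The DNA-read BrokenHeart animals had 299 ± 54.9 near guidance gene starts (n = 3) and 73609 ± 7062 near all.

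**Figure D4:**
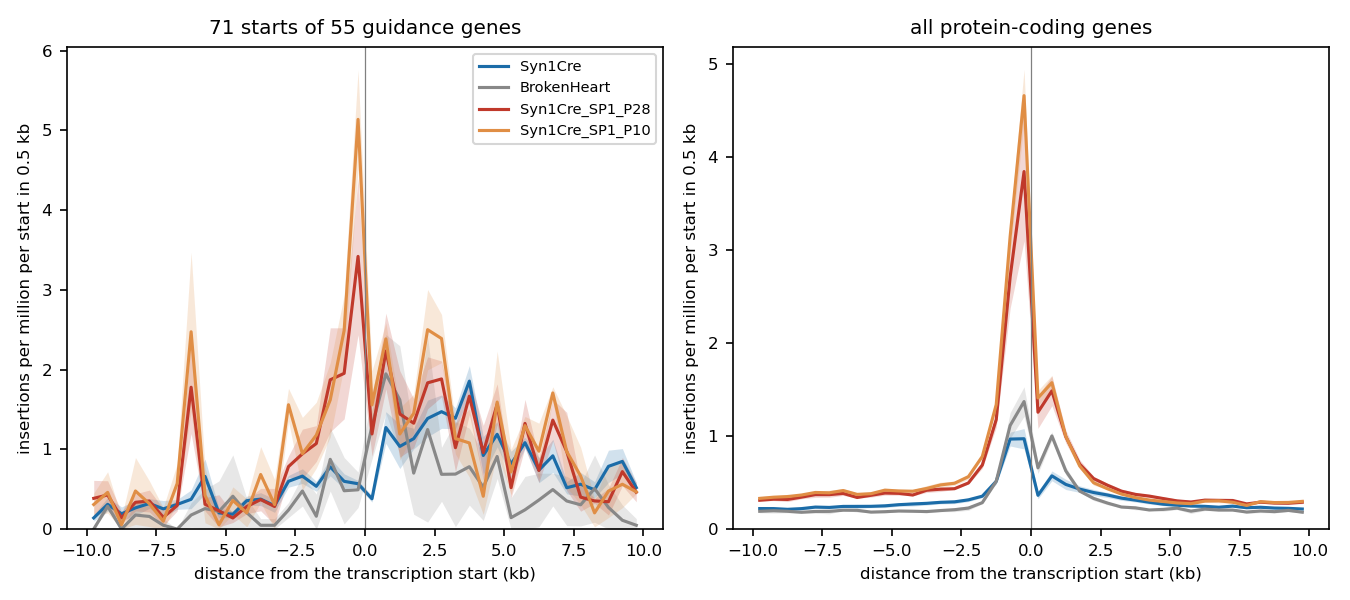
IPM per start in bins of 0.5 kb (vertical axes) by distance from the transcription start (horizontal axes, kb) at guidance genes (left) and all protein-coding genes (right), with mean and SD over the animals of 4 groups. Both SP1 groups peak just before the start, and Syn1Cre has no such peak at the guidance genes.

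At single genes the extra insertions were not always at the gene's own start. Efna2 had 0 of 187 P28 insertions within 1 kb of its own start, and its most used position, chr10:80173467, held 45 of them (24.1%) 523 bases from the start of the neighbouring Fam174c and inside that gene. The same position held 23 of 73 at P10. The rise was also present in the Efna2 body alone (log2 2.41, edgeR adjusted p = 4.54e-05, at P28). At Plxna3 the most used position, chrX:74353356, held 23 of 84 and lay 262 bases from the start of Lage3, and at Plxnb2 13 of 65 lay at a position 415 bases from the start of Mapk11. Of the 65 members, 36 have another gene's body inside their locus, and insertions there cannot be assigned to either gene.

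Other members gained at their own start. Ephb6 had 74 of 103 P28 insertions within 1 kb of it (71.8%), against 66 of 259 in Syn1Cre (25.5%), and its most used position lay 421 bases away with 32. Epha10 had 60 of 133 (45.1%) against 15 of 159 (9.43%), and 32 of them were at 1 position, chr4:124881535, which is the TTAA that opens the Epha10 sequence printed above. Sema4c had 22 of 45 (48.9%) against 14 of 58, all 22 at a position 467 bases from its start. Sema3c kept few there, 1 of 23 against 4 of 363.

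Between the SP1 ages, 2 of 28 tested members were higher at P28 and 1 lower, where 7.46% and 3.73% of 3460 loci were. All of these lie over 150 kb, where 2 of 19 members were higher and 1 lower, beside 17.1% and 1.18% of all loci. Sema3a was lower at P28 (254 ± 46.2 IPM, n = 4, against 458 ± 51.6, n = 3; log2 −0.70, SE 0.22, edgeR adjusted p = 0.0357), and no animals overlapped. Sema6d was higher (1307, 1230, 1379 and 919 IPM against 702, 958 and 629; log2 0.75, SE 0.21, edgeR adjusted p = 0.0228), with overlap through P28 animal 4. Unc5c was higher (306, 211, 225 and 230 against 196, 167 and 94.4; log2 0.82, SE 0.27, edgeR adjusted p = 0.047) without overlap, and did not pass under total insertions, where the median of all loci was −0.10 in place of 0.03 and 44.6% rather than 66.7% of called loci were higher. All P10 animals shared sequencing pools with P28 animals 2, 3 and 4, whereas P28 animal 1 shared none with P10. With each animal put with those it shared most pools with (P28 animals 2 and 3 with P10 animal 2, P28 animal 4 with P10 animals 1 and 3), Sema3a was lower at P28 and Sema6d and Unc5c higher in both sets. A fit chosen after seeing the data took that set as a block and left out P28 animal 1. It called 631 of all loci, beside 387 in the main fit, and of 26 tested members 6 were higher and 2 lower. These included Sema3a (−0.56, edgeR adjusted p = 0.024), Sema6d (0.63, edgeR adjusted p = 0.00831) and Unc5c (0.78, edgeR adjusted p = 0.0163), and Robo1 passed as well (0.62, edgeR adjusted p = 0.0165). Without the block none of the calls remained without P28 animal 1 or without any of P10 animals 1, 2 and 3, where the count was 0 each time. In this pair the astrocyte marker loci had 2 of 4 tested higher at P28. Their part in the result was not tested.

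Of the genes followed in every comparison, Epha4 had 0.66, Nrp1 0.59, Plxna4 0.57, Sema6a 0.49, Robo1 0.46, Efna5 0.38, Dcc 0.33, Robo2 0.21, Unc5d 0.18, Slit2 0.12 and Epha5 0.10 as log2 fold changes of P28 over P10, and none of them passed. Ntn1, Efnb3 and Plxna2 were too thinly covered to test.

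Among animals without SP1, many guidance loci differed between the Syn1Cre line's Cre-positive and Cre-negative groups: 15 of 42 tested members were higher in Syn1Cre than in Syn1CreNeg and 4 lower, against 13.6% and 17.5% of 8613 loci. The median over the members was 0.33, beside 0.02 over all loci. Under total insertions the counts were 16 and 4, with the same 15 and 4 among them. Without Syn1CreNeg animal 6 they were 10 and 2. The share of all loci that were higher grew with body length. Over 150 kb, 8 of 24 members were higher and 2 lower, where 26.9% and 17.5% of all loci of that length were. At 50 to 150 kb the counts were 4 and 1 of 8 (all loci 13.4% and 18.8%), and under 50 kb 3 and 1 of 10 (9.65% and 16.7%).

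Among semaphorins, Sema5b had 35.9 to 52.3 IPM in Syn1Cre (median 42.4) and 16.8 to 27.0 in Syn1CreNeg, and Sema3a 411 to 516 and 149 to 345. Neither pair of groups overlapped. The log2 fold changes were 0.95 (SE 0.22, edgeR adjusted p = 0.00165) for Sema5b and 0.65 (SE 0.14, edgeR adjusted p = 0.00104) for Sema3a. Sema5a rose by 0.81, also without overlap, and Sema7a by 0.93 and Sema3d by 0.71 with overlap. The Sema7a call was lost without Syn1CreNeg animal 5 (0.75, edgeR adjusted p = 0.0751) or 6 (0.70, edgeR adjusted p = 0.0884).

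Sema4b and Sema6d fell. Sema4b had 19.9 to 33.4 IPM in Syn1Cre and 20.5 to 65.1 in Syn1CreNeg, where only animal 2 reached the Syn1Cre range (log2 −0.97, SE 0.20, edgeR adjusted p = 0.000529). Sema6d had 678, 712, 608, 983, 1480 and 891 IPM in Syn1Cre animals 1 to 6 and 1251 to 1879 in Syn1CreNeg, so that only Syn1Cre animal 5 overlapped. The difference was −0.87 on the log2 scale (SE 0.18, edgeR adjusted p = 0.000634), and −1.10 without animal 5.

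Of the Eph system, Epha3 rose the most surely, with 610 to 854 IPM against 288 to 512 (log2 0.83, SE 0.13, edgeR adjusted p = 5.05e-05) and no overlap. Epha10 (0.87), Epha7 (0.38) and the ligand Efnb2 (0.39) also rose and Ephb1 fell (−0.39). Epha10 lost its call without Syn1CreNeg animal 5 (0.58, edgeR adjusted p = 0.153) or 6 (0.92, edgeR adjusted p = 0.0517), and Ephb1 without animal 6 (−0.35, edgeR adjusted p = 0.0634). Ephb1 also lost it when each position was counted once per animal (−0.18, edgeR adjusted p = 0.257).

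Netrin system genes made up 3 of the increases, with 3 of 5 tested higher, where 13.6% of all loci were. Unc5d rose by 0.66 (SE 0.14, edgeR adjusted p = 0.000594) and Unc5a by 0.81 (SE 0.17, edgeR adjusted p = 0.000848), although Unc5a fell short when each position was counted once (0.31, edgeR adjusted p = 0.252). Ntn1 rose by 0.72 (edgeR adjusted p = 0.0318), a call that was lost without Syn1Cre animal 3 or 6 or Syn1CreNeg animal 1, 2, 5 or 6, where the log2 values ran from 0.54 to 0.70. Slit1 (0.75), Nrp2 (0.69) and Plxna4 (0.52) rose too. Plxna4 was lost without Syn1CreNeg animal 4 (0.43, edgeR adjusted p = 0.0671). Nrp1 fell by −0.38 (edgeR adjusted p = 0.0302) and was lost without Syn1Cre animal 1, 3 or 4 or Syn1CreNeg animal 4 or 6, with values from −0.39 to −0.33.

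The other genes followed throughout did not pass, with log2 fold changes of 0.63 for Efnb3, 0.33 for Epha4 and Plxna2, 0.23 for Slit2, 0.16 for Robo2, 0.12 for Epha5 and Efna5, 0.01 for Dcc, −0.09 for Robo1 and −0.30 for Sema6a. Marker loci moved strongly in this comparison: 8 of 11 tested neuron loci were higher (median log2 0.82) and 8 of 8 tested astrocyte loci lower (median −1.29). Their part in the guidance gene results was not tested. None of the astrocyte list was at 0 in either group. Oligodendrocyte lineage loci summed to 246 to 291 IPM in Syn1Cre and 286 to 395 in Syn1CreNeg (2 of 5 tested lower), microglial loci to 93.8 to 101 and 92.4 to 154 (1 of 3 lower), and endothelial loci to 47.4 to 110 and 31.1 to 55.8 (1 of 1 higher, Cldn5 at 0 in Syn1CreNeg).

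The same comparison under the astrocyte promoter gave fewer calls. Of 43 tested members 0 were higher in GFAPCre than in GFAPCreNeg and 3 lower, against 2.18% and 5.97% of 9203 loci, and the median was 0.15 beside 0.02. Sema6d had 859 to 1366 IPM against 1434 to 2216, without overlap (log2 −0.64, SE 0.12, edgeR adjusted p = 0.000883). Sema4d had 32.5 to 42.6 against 44.8 to 66.7, also without overlap (−0.58, SE 0.15, edgeR adjusted p = 0.0131), and was lost without GFAPCre animal 2 (−0.52, edgeR adjusted p = 0.0531). Ephb1 had 150 to 194 against 188 to 265 (−0.43, SE 0.11, edgeR adjusted p = 0.0146). Sema4d and Ephb1 did not pass when each position was counted once per animal (−0.42 and −0.28). Without GFAPCre animal 3 the count was 8 members (5 higher), and without GFAPCreNeg animal 5 it was 5 (2 higher).

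GFAPCre animals 4, 5 and 6 shared pools with GFAPCreNeg animals 1, 3 and 4 in that order, and GFAPCre animal 5 also with GFAPCreNeg animal 6. Sema6d was lower in the GFAPCre animal of every such pool: 1186 against 1450 IPM, 922 against 1806 and 2216, and 979 against 1492. With the pool as a block and GFAPCreNeg animal 6 left out, Sema6d had −0.58 (edgeR adjusted p = 0.00122), Sema4d −0.57 (edgeR adjusted p = 0.193) and Ephb1 −0.37 (edgeR adjusted p = 0.178), and 2 members passed, 1 in each direction. With GFAPCreNeg animal 6 included, a fit chosen after seeing the data, 0 of 44 tested members passed (13 at an unadjusted p under 0.05 in edgeR), and Sema6d had −0.69 (edgeR adjusted p = 0.0791). Over all animals, at an unadjusted p under 0.05, 17 members differed in edgeR, and DESeq2 called the same number as edgeR, 0 higher and 3 lower. The genes followed throughout had log2 fold changes from −0.25 (Sema6a) to 0.63 (Efnb3), and none passed: Nrp1 −0.18, Dcc −0.05, Epha4 −0.01, Epha5 0.01, Plxna2 0.05, Robo1 0.07, Robo2 0.09, Sema3a 0.11, Efna5 0.15, Ntn1 0.19, Slit2 0.25, Plxna4 0.29 and Unc5d 0.32. Of the marker loci, 2 of 9 tested astrocyte loci were lower and 1 of 8 neuron loci higher, with summed astrocyte levels of 851 to 1739 IPM in GFAPCre and 1515 to 3143 in GFAPCreNeg. Tmem119 of the microglial list was at 0 in GFAPCreNeg. The part of these loci was not tested.

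**Figure D5:**
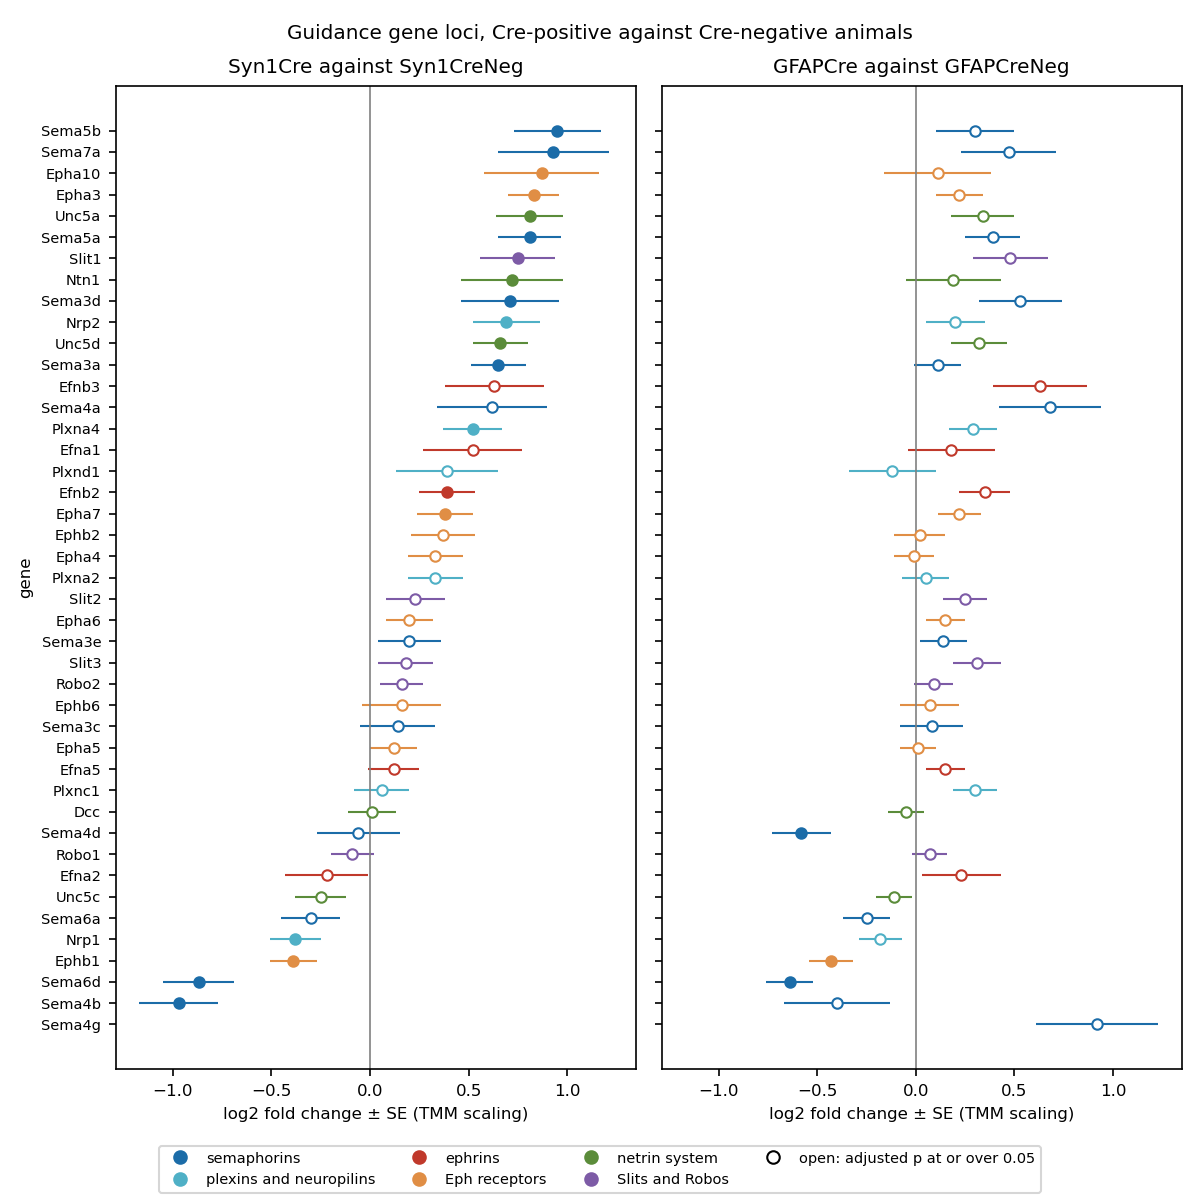
Log2 fold change (horizontal axes, ± SE, TMM scaling) of each guidance gene tested in either comparison (vertical axis) between Cre-positive and Cre-negative animals, for Syn1Cre (left) and GFAPCre (right), 6 animals per group. Filled points passed the threshold and colours give the family. Sema6d and Ephb1 are filled on the left of 0 in both panels, and no point is filled above 0 for GFAPCre.

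The Cre effect under Syn1 minus that under GFAP was tested itself. It passed for 0 of 47 members in either direction (7 at an unadjusted p under 0.05 in edgeR, and 0 with DESeq2), against 0.455% and 0.237% of 10550 loci. The differences that passed under Syn1 alone were therefore not shown to differ between the promoters. Without Syn1Cre animal 5, or without GFAPCre animal 6, 1 member passed. The largest values among the genes followed were 0.55 for Sema3a and Ntn1, 0.36 for Unc5d, 0.35 for Epha4, 0.30 for Plxna2 and 0.25 for Plxna4. The others were 0.13 for Epha5, 0.11 for Robo2, 0.08 for Dcc, 0.01 for Slit2 and Efnb3, −0.00 for Efna5, −0.05 for Sema6a, −0.13 for Robo1 and −0.19 for Nrp1. Of the neuron marker loci 5 of 11 passed as higher here.

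Syn1Cre and GFAPCre animals compared directly gave 0 of 47 members in either direction (13 at an unadjusted p under 0.05 in edgeR, and 0 with DESeq2), against 1.19% and 0.961% of 11553 loci. The log2 fold changes of the genes followed ran from −0.35 for Slit2 and Robo1 to 0.33 for Efnb3. Nrp1 had −0.26, Epha5 −0.23, Robo2 −0.21, Dcc −0.09, Efna5 −0.05, Epha4 −0.04, Sema6a −0.03, Plxna4 −0.02, Unc5d 0.05, Plxna2 0.09, Ntn1 0.12 and Sema3a 0.24. Without Syn1Cre animal 5 the count was 6, without Syn1Cre animal 4 it was 3 and without GFAPCre animal 5 it was 1. With Syn1Cre animals 1 to 3 alone it was 12 of 50 tested, of which 10 were lower in Syn1Cre. Calls over all loci also grew in that fit, from 248 to 1634. Robo1 was then at −0.54 (edgeR adjusted p = 0.000393), Slit2 at −0.46 and Epha5 at −0.44. Of the neuron marker loci 6 of 12 were higher in Syn1Cre and of the astrocyte loci 0 of 9 passed.

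Rbp4Cre_TRAP animals differed from Syn1Cre in 5 of 46 tested members, all lower, against 0.196% of 10693 loci higher and 1.92% lower. The median over the members was −0.39, beside −0.31 over all loci. Long loci were lower more often in general. Over 150 kb, 4 of 24 members were lower, where 9.11% of all loci of that length were. At 50 to 150 kb it was 1 of 8 (all loci 1.67%), and under 50 kb 0 of 14 (0.426%). Tissue, preparation, driver and sequencing pool all differ between these groups and cannot be told apart. Sema3a had 158, 159, 150 and 246 IPM in Rbp4Cre_TRAP, below every Syn1Cre animal at 411 to 516 (log2 −1.65, SE 0.23, edgeR adjusted p = 2.41e-05). It passed under every leave-one-out alternative and under total insertions (−1.40, edgeR adjusted p = 7.53e-05).

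The other decreases were less stable. Dcc (−0.79, SE 0.19, edgeR adjusted p = 0.0224), Sema6d (−1.02, edgeR adjusted p = 0.035), Nrp2 (−1.63, edgeR adjusted p = 0.0445) and Plxnc1 (−1.07, edgeR adjusted p = 0.0486) overlapped between the groups and did not pass under total insertions, where the median of all loci was −0.07 and 42.6% rather than 9.29% of called loci were higher. Sema6d stood at −0.83 (edgeR adjusted p = 0.000694) without Syn1Cre animal 5. The count of members was 10 without Syn1Cre animal 5, 3 without Syn1Cre animal 2, 2 without Syn1Cre animal 4, and 1 without Syn1Cre animal 6 or without Rbp4Cre_TRAP animal 3 or 4. DESeq2 called 2 members higher and 2 lower.

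Efna5 and Sema3c lay on the other side. Efna5 had 667, 675, 674 and 778 IPM in Rbp4Cre_TRAP, above the 287 to 449 of Syn1Cre, and Sema3c had 105, 159, 200 and 164, above 58.2 to 69.2. Neither passed under TMM (log2 0.61, edgeR adjusted p = 0.0543, and 0.97, edgeR adjusted p = 0.0782), and both passed under total insertions (0.87, edgeR adjusted p = 0.000913, and 1.22, edgeR adjusted p = 0.0367). Sema3c was also 128 and 164 IPM in the 2 C57bl6J animals. The remaining genes followed did not pass: Sema6a −1.09, Slit2 −0.85, Unc5d and Epha4 −0.67, Robo2 −0.49, Plxna4 and Epha5 −0.37, Nrp1 −0.27, Robo1 0.13, Plxna2 0.18, Ntn1 0.26 and Efnb3 0.37.

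Summed astrocyte marker loci were 199 to 615 IPM in Rbp4Cre_TRAP, below all Syn1Cre animals, with Aldoc at 0, and 1 of 8 tested passed as lower (median log2 −2.17). Neuron marker loci were 3993 to 5695, with Gad1 and Dlx2 at 0, and 1 of 12 passed as higher and 3 as lower. Oligodendrocyte lineage loci summed to 263 to 318 IPM (Olig2 and Sox10 at 0), microglial loci to 49.9 to 205 (Cx3cr1 and Tmem119 at 0) and endothelial loci to 41.0 to 150 (Cdh5 at 0), and none of these lists had a call among 5, 3 and 2 tested loci. Their part in the guidance gene results was not tested.

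Beyond ligands and receptors, 56 genes of guidance signalling, such as netrin relatives and cytoplasmic effectors, were followed as a list. With SP1, 5 of 52 tested rose and 14 fell at P28, and 6 and 14 at P10, beside 26.2% and 25.3% of all loci at P28 and 20.1% and 20.6% at P10. The list median was −0.26 and −0.32, beside −0.06 and −0.26 over all loci. Crmp1, which encodes a cytoplasmic mediator of semaphorin signalling, had 287 ± 74.8 IPM at P28 (n = 4) against 33.1 ± 6.37 in Syn1Cre (n = 6), a log2 fold change of 2.53 (SE 0.17, edgeR adjusted p = 1.84e-11). Draxin, a secreted repellent, rose by 1.35, and Flrt2, a membrane ligand of Unc5 receptors, fell by −1.46. Between Syn1Cre and Syn1CreNeg 7 of 45 were higher and 12 lower (all loci 13.6% and 17.5%), among the latter Rgma, a repellent that acts on neogenin (−1.15, SE 0.16, edgeR adjusted p = 1.31e-05). For GFAPCre against GFAPCreNeg the counts were 2 and 7 of 45 (all loci 2.18% and 5.97%), between the SP1 ages 5 and 1 of 33 (7.46% and 3.73%), and for Rbp4Cre_TRAP 0 and 5 of 49 (0.196% and 1.92%). Syn1Cre against GFAPCre gave 1 and 0 of 52 (1.19% and 0.961%) and the difference of Cre effects 0 of 48 (0.455% and 0.237%).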

How the data were processed

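The authors deposited 1 table per animal with 1 line per insertion and its read count, and these counts are raw, whole numbers judged from their values. The submitters' processing notes name mm10, Novoalign and Bowtie2, without versions. Insertions were counted as lines of a table per protein-coding locus (RefSeq, GRCm38.p6) on chromosomes 1 to 19 and X. Starts of the BrokenHeart tables, which lay 1 base off the other tables, were moved by -1. All loci entered each fit of the edgeR 4.0.16 quasi-likelihood test (R 4.3.3), with total insertions as library size, TMM factors, the low-count filter of edgeR, only the groups compared, and Benjamini-Hochberg adjustment at 0.05. The script was tested on simulated counts.

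The members follow from a rule on symbols that uses no measured value, but the rule and the lists were set with earlier results of these data known. Named were all called members where 12 or fewer passed, otherwise the 6 highest and 6 lowest, and 15 fixed genes in every comparison. Others named were chosen after their values were seen. P-values measure the spread between animals, which the labels do not place in litters.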

Additional observations from a re-analysis of the deposited data

Results flagged for a closer look

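Single animals stood apart at 3 of the 69 groups of values examined with Dixon's gap test at its 95% level, where chance gives about 1 in 20. Plxnc1 in Syn1Cre had 135 IPM in animal 5, with the next animal at 181. Sema3a in Rbp4Cre_TRAP had 246 IPM in animal 4, with the next at 159. Sema4b in Syn1CreNeg had 20.5 IPM in animal 2, with the next at 50.3. Between the SP1 ages the tested difference passed for Sema3a (log2 -0.70 for P28 over P10), Sema6d (0.75) and Unc5c (0.82), as described in the report.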

How the results depend on the processing

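Leaving out 1 animal at a time gave 33 to 41 called members for SP1 at P28 and 33 to 39 at P10 (main counts 39 and 39), 12 to 21 (19) and 2 to 8 (3) for Syn1Cre and GFAPCre against their Cre-negative animals, 0 to 6 for Syn1Cre against GFAPCre (0), 0 to 1 for the difference of Cre effects (0), 0 to 3 between the SP1 ages (3) and 1 to 10 for Rbp4Cre_TRAP (5). Syn1Cre animals 1 to 3 alone gave 12 against GFAPCre, with 1634 of all loci called beside 248 in the main fit. Gene bodies without flanks gave 5 for GFAPCre against GFAPCreNeg, with 669 of all loci called beside 750. Calls over all loci in the leave-one-out fits are not given here. The pool-blocked fits chosen after seeing the data gave 0 there and 8 between the SP1 ages, with 37 and 631 of all loci called. Thinning every animal to the shallowest left 21 of 29 tested members at P28 (3 higher, 18 lower) and 23 of 28 at P10 (3 and 20), fewer than the 52 and 54 tested at full depth. It called 1620 and 1812 of all loci, beside 6204 and 5205 in the main fits. Within 1 kb of a gene end 3 of 5 tested members passed at P28 and 4 of 8 at P10, and Efna2 stood at -0.03 and -0.25 there and Epha5 at 0.25 at P10. Between the SP1 ages no member was tested there. Sema3a at P10 stood at 0.03 under total insertions. Between the SP1 ages DESeq2 gave 1, no low-count filter 0 and distinct positions 1, with 167, 262 and 212 of all loci called beside 387. For Rbp4Cre_TRAP total insertions gave 3, no filter 16 and distinct positions 10. Of all loci, 129, 759 and 593 were then called, beside 226 in the main fit. Of 74 called gene values, 29 lost the call under some alternative and 4 changed sign, the ones given here.

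Replicate numbers did not pair the animals (correlations of same-numbered deviations from -0.21 to 0.17). With the replicate block the counts were 5 between the SP1 ages, 3 for Rbp4Cre_TRAP, 38 and 39 for SP1 at P28 and P10, 3 for GFAPCre and 20 for Syn1Cre against their Cre-negative animals, and 0 for the other comparisons. Depth limited which loci could be tested: between 11 and 37 of the 65 members were too thinly covered to test.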

Other observations

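In N2a cells, whose single table of 806653 insertions allows no test, Epha7, Ephb6, Sema5a and Efnb1 had 0 insertions, which at 3 insertions as the limit of a count of 0 allows a level of up to 3.72 IPM, for counting error only. The largest levels were 777 IPM at Sema6d (exact Poisson 95% interval 718 to 841), 728 at Slit3 (670 to 789) and 687 at Unc5c (631 to 746). Robo2, at 2711 to 3471 IPM in Syn1Cre cortex, had 58.3 (42.8 to 77.5), and Epha3 12.4 (5.94 to 22.8). Per kb of locus the ephrin Efna1 led with 3.82 IPM per kb, before Sema4b with 2.78.

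In the DNA-read BrokenHeart animals Robo2 had 892, 1375 and 823 IPM and Epha3 206, 183 and 306, below both C57bl6J animals (3179 and 3217, and 820 and 899). Sema6d, at 995, 672 and 964, was not below the 655 and 680 of C57bl6J, and Efnb2 overlapped as well, at 94.1 to 163 against 132 and 142. These groups were not tested against each other.

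Frontflip_GFAPCre animals had 2544, 2777 and 2307 IPM at Robo2 and 973, 1096 and 893 at Epha5. Their Sema6d, at 1211, 1289 and 1780, was above both C57bl6J animals, as it was in GFAPCre at 859 to 1366. Sema3e, a secreted semaphorin, had 87.6, 74.7 and 79.5 IPM in Frontflip_GFAPCre, 153 to 210 in GFAPCre, 257 and 275 in C57bl6J and 129 to 179 in Syn1Cre. These values were not tested.

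Some loci owed much of their level to 1 position that recurred across groups. At Sema3b, a secreted semaphorin, chr9:107602310 inside the gene held 30 of 52 insertions in Syn1Cre (57.7%), 23 of 28 in Syn1CreNeg (82.1%) and 21 of 26 with SP1 at P28 (80.8%). At the receptor gene Ephb2, chr4:136756613 held 89 of 571 (15.6%), 39 of 135 (28.9%) and 25 of 90 (27.8%) in the same groups. The same position can be listed from several parts of 1 cortex, so these need not be independent insertions.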
